A study of Arabidopsis thaliana with 9 samples.

Results

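The transcription factors ABF1 (AT1G49720), ABF2 (AT1G45249), ABF3 (AT4G34000), ABF4 (AT3G19290) and ABI5 (AT2G36270), the bZIP factors through which Arabidopsis thaliana answers the hormone abscisic acid, were followed in roots given cesium, low potassium or control medium. They were chosen by gene identifier, with earlier results of these data known, and are 5 of the 37547 genes measured. All plants were wild-type Col-0, grown at 22°C with 16 h of light and 8 h of dark, and each group holds 3 RNA-seq libraries of whole roots. Cesium roots received 0.5 mM KCl and CsCl, whose amount the labels write as 0.3 followed by mL, low-potassium roots received 0.025 mM KCl, and control roots received 0.5 mM KCl. The sources used here do not state plant age or the length of exposure. The study asked how these 2 stresses change root gene expression.

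When abscisic acid is bound by a receptor of the PYR/PYL family, the receptor holds back phosphatases of the PP2C family, and SnRK2 kinases are freed to phosphorylate the ABF factors and ABI5. The phosphorylated factors bind promoter elements with the core ACGTG, the ABA-responsive element, and switch on genes of drought, cold and salt tolerance. ABF2, ABF3 and ABF4 are best known from vegetative tissue under water stress, ABF1 from the cold response, and ABI5 from seeds and seedlings, where it arrests growth after germination, and from lateral roots.

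The promoters of the factors are shown because this core is what the factors bind. The windows are the 250 bases before the annotated gene start in TAIR10.1 (RefSeq), written 5′ to 3′ on the strand of the gene. Capitals mark ACGTG on either strand, which is read as CACGT where it lies on the opposite strand, and the palindrome CACGTG contains both and was counted as 1 place.
ABI5, chr2:15207637-15207886, minus strand: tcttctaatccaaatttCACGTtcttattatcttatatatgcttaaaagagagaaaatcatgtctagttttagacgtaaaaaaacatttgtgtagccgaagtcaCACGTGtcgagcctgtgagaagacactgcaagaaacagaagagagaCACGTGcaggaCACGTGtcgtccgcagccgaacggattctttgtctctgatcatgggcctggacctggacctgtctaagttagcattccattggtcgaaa
ABF4, chr3:6686792-6687041, plus strand: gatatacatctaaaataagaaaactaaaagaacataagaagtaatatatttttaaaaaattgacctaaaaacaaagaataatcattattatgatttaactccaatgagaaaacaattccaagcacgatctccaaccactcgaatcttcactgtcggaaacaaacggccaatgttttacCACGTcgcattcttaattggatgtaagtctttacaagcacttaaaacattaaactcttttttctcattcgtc
ABF3, chr4:16295084-16295333, plus strand: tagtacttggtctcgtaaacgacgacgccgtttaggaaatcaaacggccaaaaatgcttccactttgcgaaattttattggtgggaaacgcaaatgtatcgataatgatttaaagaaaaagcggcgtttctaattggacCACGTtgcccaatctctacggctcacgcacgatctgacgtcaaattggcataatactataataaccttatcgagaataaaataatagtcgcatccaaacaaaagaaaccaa
ABF2, chr1:17167925-17168174, minus strand: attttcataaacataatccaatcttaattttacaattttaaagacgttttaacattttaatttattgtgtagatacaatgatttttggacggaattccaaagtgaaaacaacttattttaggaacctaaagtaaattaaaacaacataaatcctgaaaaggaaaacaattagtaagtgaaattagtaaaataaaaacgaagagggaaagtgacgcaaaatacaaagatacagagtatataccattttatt
The ABI5 window holds 4 places, 3 of them CACGTG, and those 3 lie between 146 and 84 bases before the gene start. ABF4 holds 1 place, 72 to 68 bases before its start, and ABF3 holds 1, 111 to 107 bases before its start. ABF1, on the plus strand at chr1:18399753-18400002, holds 2 places, 114 to 110 and 83 to 79 bases before its start, and ABF2 holds none. Among all 27438 promoters of coding genes read in the same way, 22.92% hold at least 1 place and 4.986% hold 2 or more. CACGTG occurs in 6.487% of them. These matches describe letters in the windows, and binding was not measured.

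The libraries were of like depth as far as FPKM allow it to be read. FPKM, fragment numbers scaled to transcript length and to the mapped fragments of the library, summed to 714170 to 844153 per library, and the steps between low values put relative depth at 97.2% to 101.0% of control replicate 1. Total reads are not given, so absolute depth is unknown. Cesium replicate 3 had the lowest sum, and the abundant metallothionein gene MT1A is listed at 0 there. Other genes differ there too, such as the receptor gene PYL4, at 101.0 FPKM against 243.5 and 200.9 in cesium replicates 1 and 2. The changes of ABF2, ABF3 and ABI5 with cesium are therefore given with and without cesium replicate 3. All 10 root markers listed, such as SCR, SHR and WOX5, averaged 1 FPKM or more. Of 8 shoot markers 1 did (KAN1), and of 7 seed markers none, with 0.493 FPKM as their highest value and 3 of them at 0 in every library. The labels name biological replicates without stating separate cultures, so p-values measure no more than the spread among these 9 libraries, part of which may be technical.

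ABF3 was the most abundant of the 5 transcripts in every library and ABI5 the least. ABF3 averaged 58.7 ± 3.29 FPKM in cesium roots, 101.6 ± 10.9 in low-potassium roots and 101.9 ± 6.63 in control roots (SD, n = 3 each). In cesium roots ABF4 and ABF1 followed with overlapping libraries, then ABF2. In low-potassium roots ABF4 stood above ABF1 and ABF2, and the libraries of ABF1 and ABF2 overlapped. In control roots ABF2, ABF4 and ABF1 followed in that order, each overlapping its neighbour. ABI5 lay below the other 4 in every library of all 3 groups, and its mean over the 9 libraries, 2.23 FPKM, stood at percentile 8.93 of the tested genes, against percentile 92.0 for ABF3.

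Added over the 5 genes, FPKM came to 130.9 ± 2.60 in cesium roots, 182.8 ± 17.5 in low-potassium roots and 182.8 ± 11.3 in control roots (SD, n = 3 each). No cesium library, the highest at 133.1, reached the lowest library of either other group, 163.2 with low potassium and 171.3 in control. ABF3 held 44.8% of this sum in cesium roots, 55.5% in low-potassium roots and 55.8% in control roots. The share of ABF2 was 13% with cesium, 11.2% with low potassium and 16.4% in control, and that of ABF4 was 20.4%, 19.5% and 14.2% in the same groups. ABI5 held 1.57% with cesium, 1.83% with low potassium and 0.688% in control. In whole roots fewer cells of a type and less RNA per cell cannot be told apart.

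**Figure D1:**
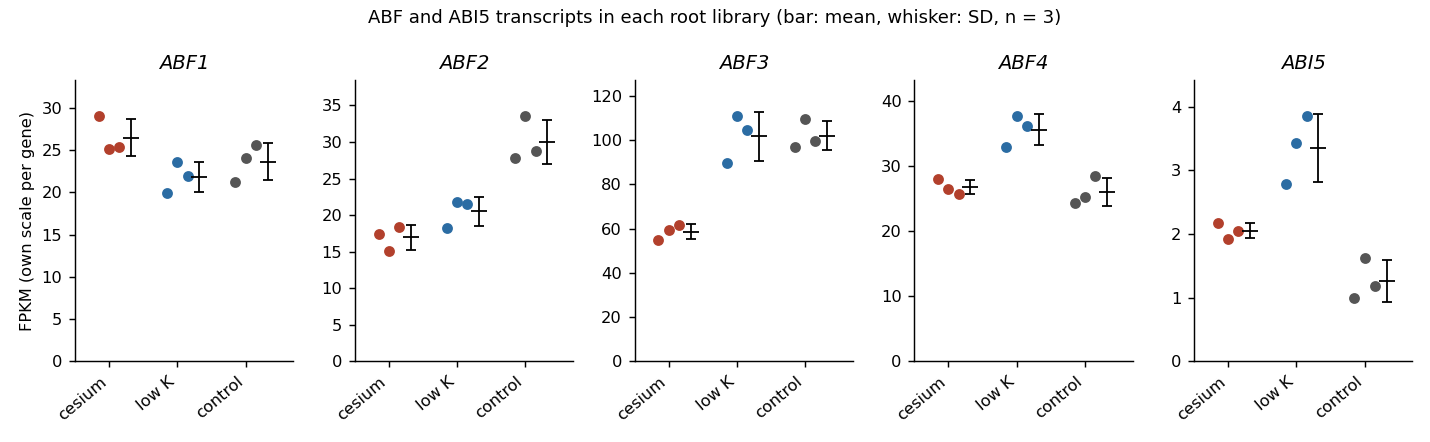
FPKM of the 5 factors in each library (points), with the group mean and SD (n = 3), for cesium, low-potassium and control roots from left to right, each gene on its own axis starting at 0. ABF3 is low only in the cesium libraries, ABF2 is low with both stresses, and ABF4 and ABI5 stand highest with low potassium.

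**Figure D2:**
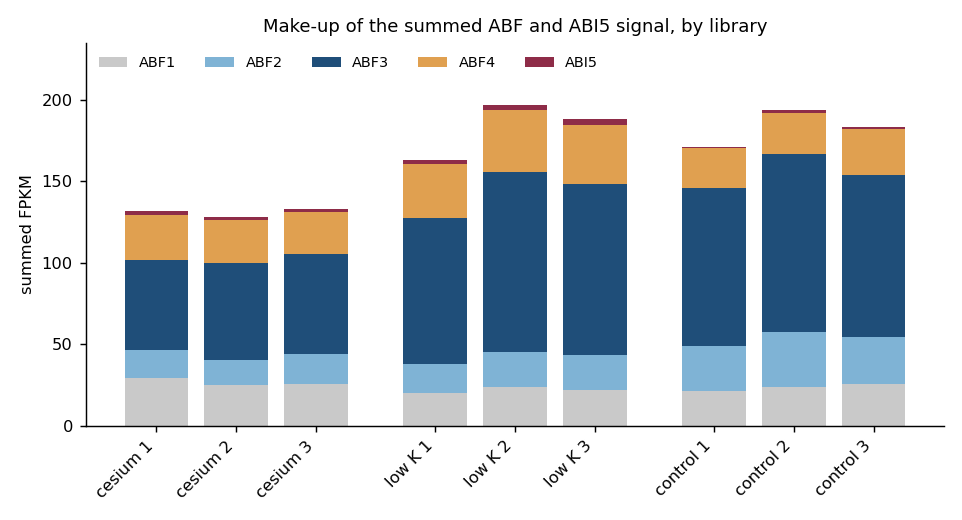
Summed FPKM of the 5 factors in each library, stacked by gene. The cesium libraries reach 128.1 to 133.1, below all others, and the ABF3 block is the one that shrinks most.

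Cesium roots held less ABF2 and ABF3 transcript than control roots, and neither ABF1, ABF4 nor ABI5 passed the test. Changes are on the log2(FPKM + 1) scale, which understates the change of low genes, and were tested with limma at an adjusted p of 0.05. Against control, 23.5% of the 19536 genes tested passed, 10.8% higher and 12.7% lower. Of the 5 factors 2 passed, both lower. The median change of the 5 was 0.042, against 0.020 over all tested genes.

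ABF2 had 17.4, 15.1 and 18.4 FPKM in the cesium libraries, against 27.7, 33.5 and 28.8 in control. Every cesium library was lower than every control library. How many of all tested genes lack overlap in the same way was not counted, so such separation does not set a factor apart. Its log2 change was -0.79 ± 0.11 (SE, adjusted p = 0.000942), and -0.84 (adjusted p = 0.000817) without cesium replicate 3. ABF3 had 55.0, 59.4 and 61.5 FPKM with cesium and 96.9, 109.4 and 99.4 in control, again with no overlap. Its log2 change was -0.79 ± 0.096 (SE, adjusted p = 0.000491), and -0.82 (adjusted p = 0.000541) without cesium replicate 3. In the authors' deposited table ABF2 changed by -0.82 and ABF3 by -0.80, each with a q-value of 0.000491.

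ABI5 had 2.17, 1.93 and 2.05 FPKM with cesium and 0.992, 1.63 and 1.18 in control. All cesium libraries were higher, yet the change of 0.44 ± 0.14 (SE, 95% interval 0.12 to 0.76) just missed the threshold at an adjusted p of 0.0511, and without cesium replicate 3 it was again 0.44 (adjusted p = 0.0814). The authors' deposited table gives ABI5 0.69 with a q-value of 0.0289. The deposited bounds of ABI5 are wide, from 0 to 2.03 FPKM in control replicate 1 and from 0.426 to 3.91 FPKM in cesium replicate 1. Those of ABF2 (15.3 to 40.2 and 8.75 to 26.1 FPKM) and ABF3 (51.3 to 142.5 and 28.8 to 81.3 FPKM) overlap between these libraries too. ABF1 had 29.0, 25.1 and 25.4 FPKM with cesium and 21.3, 24.0 and 25.6 in control, and ABF4 had 28.0, 26.5 and 25.8 FPKM with cesium and 24.3, 25.2 and 28.5 in control. The groups overlap for both. The 95% interval of the change was -0.060 to 0.38 for ABF1 (adjusted p = 0.269) and -0.15 to 0.23 for ABF4 (adjusted p = 0.751).

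Low potassium changed 3 of the 5 factors, and in both directions: ABF4 and ABI5 were higher than in control and ABF2 was lower. Among all genes tested 37.6% passed in this comparison, 18.8% higher and 18.8% lower. The median change of the 5 was -0.0089, against 0.0018 over all tested genes.

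ABI5 had 2.79, 3.43 and 3.85 FPKM with low potassium, against the 0.992 to 1.63 of control. Its mean was 2.65-fold that of control, with a log2 change of 0.94 ± 0.14 (SE, adjusted p = 0.000993). In the authors' deposited table, where the change is the log2 of a ratio of FPKM, that of ABI5 is 1.41 with a q-value of 0.000491. ABF4 had 32.9, 37.6 and 36.1 FPKM with low potassium, all above the 24.3 to 28.5 of control. Its log2 change was 0.44 ± 0.085 (SE, adjusted p = 0.00368). ABF2 had 18.2, 21.8 and 21.5 FPKM with low potassium, all below the 27.7 to 33.5 of control, and fell by 0.53 ± 0.11 on the log2 scale (SE, adjusted p = 0.00493). ABF3 had 89.4, 110.6 and 104.7 FPKM with low potassium, inside and around the control range, with a change of -0.0089 (95% interval -0.22 to 0.21, adjusted p = 0.952). ABF1 had 19.96, 23.6 and 21.9 FPKM, also overlapping control, with an interval of -0.33 to 0.11 (adjusted p = 0.401).

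Set directly against low potassium, cesium gave lower ABF3, ABF4 and ABI5. The shares of all tested genes were 34.2% passing, 16.7% higher with cesium and 17.4% lower. ABF3 changed by -0.78 ± 0.096 (SE, adjusted p = 0.000352), ABF4 by -0.40 ± 0.085 (adjusted p = 0.00643) and ABI5 by -0.51 ± 0.14 (adjusted p = 0.0214), cesium minus low potassium. The call on ABI5 was lost without cesium replicate 2 (-0.48, adjusted p = 0.0623), low-potassium replicate 2 (-0.49, adjusted p = 0.0640) or low-potassium replicate 3 (-0.43, adjusted p = 0.0738). ABF2 was low with both stresses, and the difference between them, -0.26, did not pass (95% interval -0.50 to -0.016, adjusted p = 0.0931). ABF1 was higher with cesium than with low potassium in every library, and the change of 0.27 missed the threshold (95% interval 0.051 to 0.49, adjusted p = 0.0582). The median of the 5 was -0.40, against -0.0024 over all tested genes.

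**Figure D3:**
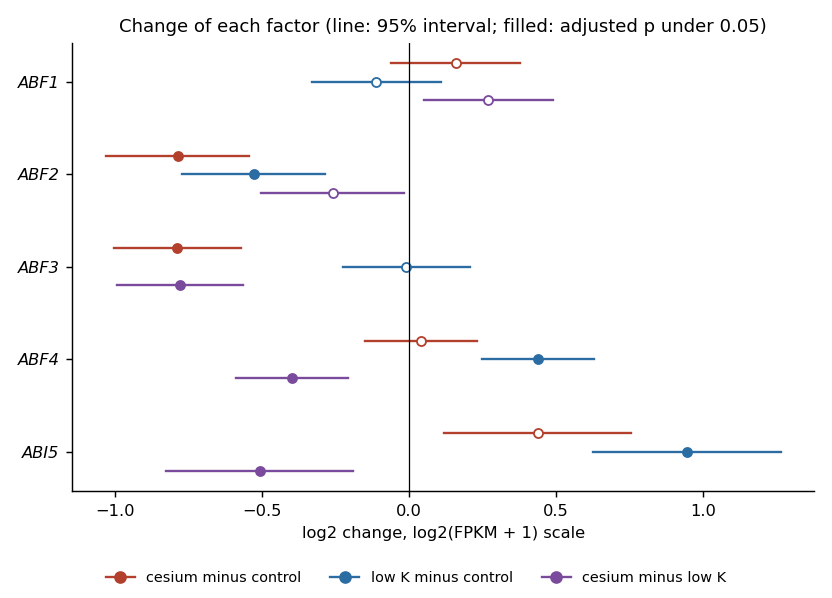
log2 change of each factor in the 3 comparisons (points) with unadjusted 95% intervals, filled where the adjusted p is under 0.05. ABF3 shows a change of -0.79 with cesium and -0.0089 with low potassium, and ABI5 has the highest value, 0.94 with low potassium.

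Markers of green tissue moved with the groups. Of 6 photosynthesis genes 5 (LHCB1.3, LHCA1, RBCS1A, PSAG and GAPA) were higher and 0 lower with cesium, where 10.8% of all tested genes were higher, and 0 were higher and 4 (LHCB1.3, LHCA1, PSAG and CAB3) lower with low potassium, where 18.8% of all were lower. Their summed FPKM was 857 to 1438 in cesium roots, 179 to 206 in low-potassium roots and 271 to 353 in control roots. Of the 10 root markers 2 (WOX5 and SUC2) were higher and 3 (GL2, CASP1 and PHO1) lower with cesium, 50% called against 23.5% of all tested genes. With low potassium 0 were higher and 5 (WER, GL2, COBL9, CASP1 and PHO1) lower, 50% called against 37.6% of all. Their summed FPKM was 374 to 422 with cesium, 319 to 388 with low potassium and 576 to 652 in control. This sum is carried mainly by CASP1 and PHO1 and does not stand for the root markers as a whole. CASP1 had 136.6 to 188.4 FPKM with cesium, 150.5 to 182.4 with low potassium and 315.4 to 386.1 in control. PHO1 had 76.9 to 87.3, 72.3 to 85.3 and 122.6 to 137.5 FPKM in the same groups. Apart from KAN1, the shoot markers stayed under 1 FPKM on average, as did all seed markers. The part of other tissue in the changes of the factors and of their targets was not tested.

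Some reads could be shared with neighbours. In the deposited files ABF1, ABF3 and ABF4 stand in regions that also hold other genes, while ABF2 (chromosome 1, 17165125 to 17167924) and ABI5 (chromosome 2, 15204659 to 15207636) stand alone. The region of ABF3 (chromosome 4, 16295334 to 16300999) also holds DJ1C, which averaged 9.65 FPKM with cesium, 10.1 with low potassium and 7.32 in control. That of ABF4 (chromosome 3, 6687042 to 6693380) holds AT3G19300, at 3.96 FPKM with cesium, 3.56 with low potassium and 4.18 in control, and the noncoding AT3G03815, at most 0.735 FPKM in any library. That of ABF1 (chromosome 1, 18400003 to 18405681) holds AT1G49730, at 5.09 FPKM with each stress and 6.50 in control, and the noncoding AT1G07587, at most 0.204 FPKM. Some listed genes stand in wide regions too. The target gene RD26 and the seed markers SESA1 and SESA3, both at 0 in every library, share a region of chromosome 4 (13242719 to 13818184). The target genes RAB18, LEA7, ADH1 and DREB2A also stand in regions wider than the gene. The libraries were made strand-specific, and the sources used here do not say if counting used strand. The coding sequences of the 5 factors share no identical run longer than 26 bases, which is between ABF1 and ABF4, at 79.02% identity of aligned bases.

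The other group A bZIP genes were set beside the 5 factors. Of 8 listed 6 were tested. The share called was 16.7% with cesium and 33.3% with low potassium, near the 23.5% and 37.6% of all tested genes, so these counts do not set the list apart. FD, known as the partner of FT in flowering, averaged 4.93 ± 0.613 FPKM with cesium and 9.46 ± 1.71 in control, and fell by 0.81 ± 0.13 on the log2 scale (SE, adjusted p = 0.00176), the sole one to pass with cesium. With low potassium FD fell by 0.86 (adjusted p = 0.000826), and bZIP13 was higher by 0.35 (adjusted p = 0.0394), a call lost in 6 of 9 fits that left out 1 library (adjusted p 0.0546 to 0.124), those without control replicate 1, 2 or 3, low-potassium replicate 2 or 3, or cesium replicate 2. Between cesium and low potassium, where 34.2% of all tested genes passed, 0 of the 6 passed by limma, and 0 had an unadjusted p under 0.05.

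Genes known from earlier work as targets of ABF factors or ABI5, such as the dehydrin gene RAB18 and the stress gene RD29A, included 8 that fell with cesium and 14 that rose with low potassium. These were different genes except for RAB18, the only one in both sets. This list and the other gene lists were chosen with earlier results of these data known. Shares of all tested genes are therefore given beside the counts for reference and test nothing. Of 25 listed 24 were tested. Against control 0 were higher and 8 lower with cesium, where 10.8% of all tested genes were higher and 12.7% lower. With low potassium 14 were higher and 3 lower, where 18.8% of all tested genes were higher and 18.8% lower. Their median change was -0.44 with cesium and 0.63 with low potassium. Cesium minus low potassium, 0 were higher and 20 lower, where 17.4% of all tested genes were lower, with a median of -1.25. The control libraries enter both comparisons with control. RD29A, RD29B, COR47 and LEA7, all lower with cesium, were not called with low potassium. RD29A had 34.0, 76.2 and 51.0 FPKM with low potassium and 52.4, 73.9 and 48.6 in control.

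LTP4, a lipid transfer protein gene, averaged 3.19 ± 0.883 FPKM with cesium and 18.9 ± 3.19 in control, a change of -2.26 ± 0.16 (SE, adjusted p = 2.91e-05). The dehydrin gene COR47 had 182.0, 175.1 and 164.9 FPKM with cesium and 512.1, 607.6 and 512.3 in control, a change of -1.64 ± 0.16 (adjusted p = 0.000159). RD29A averaged 11.2 ± 1.84 FPKM with cesium and 58.3 ± 13.6 in control, a change of -2.26 ± 0.26 (adjusted p = 0.000375). All 8 lower calls with cesium held in each of the 9 fits that left out 1 library. With low potassium 15 of the 17 calls held in all of them, and the higher calls on EM6 and GOLS2 were lost in at least 1. Between the stresses 17 of the 20 held, and those on RD29B, GOLS2 and XERICO were lost in at least 1.

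HIS1-3, a linker histone gene induced by drought, had 200.5, 281.3 and 243.5 FPKM with low potassium and 23.7, 18.9 and 20.9 in control, a log2 change of 3.45 ± 0.15 (SE, adjusted p = 1.99e-06). With cesium HIS1-3 had 33.1, 23.9 and 25.7 FPKM, and its change from control, 0.36, did not pass (adjusted p = 0.115). NYC1, a chlorophyll b reductase gene of leaf yellowing, rose by 1.18 with low potassium (adjusted p = 0.000217). RAB18 had 0.939, 1.66 and 1.72 FPKM with cesium, 16.8, 28.5 and 22.5 with low potassium, and 6.38, 7.16 and 3.88 in control. The 3 groups of RAB18 values do not overlap. Its change from control was -1.46 with cesium (adjusted p = 0.00215) and 1.80 with low potassium (adjusted p = 0.000457), while the authors' deposited table gives q-values of 0.265 for cesium and 0.0679 for low potassium. Directly compared, cesium minus low potassium, RAB18 differed by -3.26, HIS1-3 by -3.09 and RD26, a NAC factor gene, by -1.60 (adjusted p = 2.01e-05, 4.26e-06 and 0.000149 in this order).

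The 3 targets lower with low potassium were PHO1, the phosphate exporter of the root stele (-0.75, adjusted p = 0.000321), LTP4 (-1.24, adjusted p = 0.000407) and ADH1, alcohol dehydrogenase (-1.30, adjusted p = 0.00151). All 3 were lower with cesium too, with changes of -0.67, -2.26 and -1.77. PHO1 is also 1 of the root markers. KIN1 and KIN2, and LTP3 and LTP4, are neighbouring like copies whose reads may have been split uncertainly. With low potassium LTP3 was called higher, at 137.1 to 150.5 FPKM against 82.9 to 110.9 in control, while LTP4 was called lower. KIN1 was called higher there, at 411.9 to 804.6 FPKM against 192.5 to 201.8. KIN2 was not called, at 266.1 to 361.6 FPKM against 348.4 to 420.3. The part of read assignment in the calls on these genes was not tested. ACGTG stands in the promoter windows of 12 of the 25 targets, 48% against 22.92% of all coding genes. The windows of RD29A, COR47, HIS1-3, NYC1, NYE1, PHO1, LTP3, LTP4, HB7, HB12, GOLS2, TSPO and XERICO hold none.

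**Figure D4:**
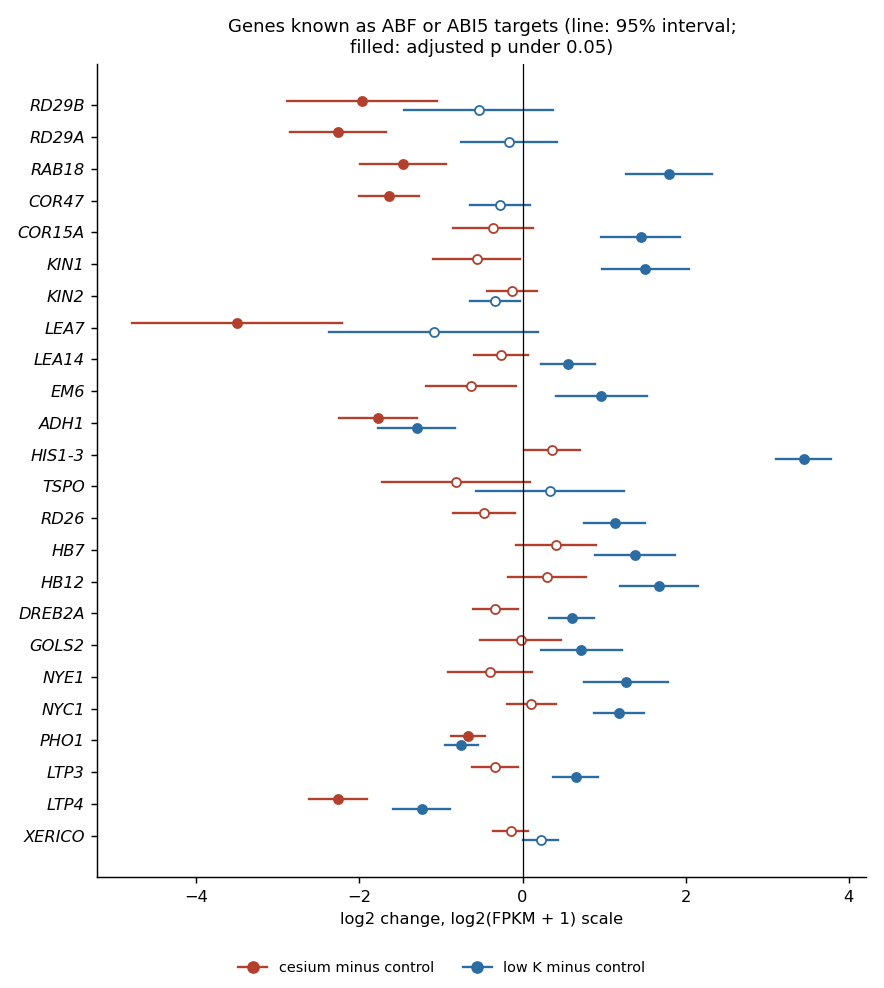
log2 change of the 24 tested target genes with cesium and with low potassium, each against control, with 95% intervals, filled where the adjusted p is under 0.05. HIS1-3 lies at 3.45 with low potassium and 0.36 with cesium, and RAB18 lies on opposite sides of 0.

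Upstream of the factors, PP2C phosphatase genes, which hold back the SnRK2 kinases and are themselves known to be induced by abscisic acid, were higher with low potassium. Of 8 tested 6 were higher and 0 lower, where 18.8% of all tested genes were higher and 18.8% lower, with a median of 0.55. PP2CA averaged 42.3 ± 1.23 FPKM with low potassium and 28.3 ± 2.69 in control, a change of 0.56 ± 0.085 (SE, adjusted p = 0.000991). HAB1 rose by 0.54 (adjusted p = 0.00335) and ABI1 by 0.41 (adjusted p = 0.00759), and 4 of the 6 passed in every fit without 1 library. With cesium ABI1 fell by 0.44 (adjusted p = 0.00787), and HAI3 fell by 1.05 (adjusted p = 0.0272), a call lost without cesium replicate 1 or 2 or control replicate 2 or 3 (adjusted p 0.0514 to 0.0987). With cesium 2 of the 8 were called, 25% against 23.5% of all tested genes. Cesium minus low potassium, 6 of the 8 were lower, where 17.4% of all were lower, and 4 of these calls held in every fit without 1 library, with ABI1 at -0.85, PP2CA at -0.71 and HAI3 at -2.32 (adjusted p = 0.00018, 0.000295 and 0.000375 in this order).

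Receptor genes for abscisic acid were called lower more often than higher with low potassium. Of 14 listed 10 were tested, and with low potassium 1 was higher and 6 lower, where 18.8% of all tested genes were higher and 18.8% lower, with a median of -0.28. Of these 7 calls 4, those on PYL2, PYL3, PYL6 and PYR1, held in every fit without 1 library, and 4 receptors were called without control replicate 2 or 3 or low-potassium replicate 1. PYL6 averaged 1.53 ± 0.120 FPKM with low potassium and 15.3 ± 1.35 in control (-2.69 ± 0.13, SE, adjusted p = 3.19e-06). PYL2 had 4.29, 4.096 and 4.23 FPKM with low potassium and 23.4, 16.8 and 17.1 in control, a change of -1.93 (adjusted p = 1.31e-05). PYR1 fell by 0.36 (adjusted p = 0.00729), and PYL3 rose by 1.03 (adjusted p = 0.00854). With cesium 1 receptor was higher and 5 (PYL1, PYL2, PYL3, PYL6 and PYL9) lower, where 10.8% of all tested genes were higher and 12.7% lower. Only 2 were called without control replicate 3, and 3 without control replicate 2 or cesium replicate 2. PYL3 was lower with cesium by 1.29 on the log2 scale (adjusted p = 0.00443) in every fit without 1 library. PYL1 (-0.36, adjusted p = 0.0307), PYL2 (-0.41, adjusted p = 0.046) and PYL9 (-0.36, adjusted p = 0.0208) each lost the call in several of these fits. PYL7 was higher by 0.52 (adjusted p = 0.0126, and 0.0522 without control replicate 2), and PYL6 fell by 0.58 (adjusted p = 0.0131, and 0.0523 without control replicate 2 and 0.0516 without control replicate 3). Cesium minus low potassium, 6 receptors were higher, where 16.7% of all tested genes were higher, led by PYL6 (2.11) and PYL2 (1.52), and 1, PYL3, was lower (-2.31). Of these 7 calls 5 held in every fit without 1 library. The higher calls on PYR1 (adjusted p up to 0.111) and PYL5 (up to 0.0646) did not.

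Kinases known to phosphorylate ABF factors or ABI5 gave 0 higher and 4 lower with cesium, of 9 tested, where 12.7% of all tested genes were lower, with a median of -0.37. OST1, the SnRK2 kinase best known from guard cells, averaged 8.23 ± 1.20 FPKM with cesium and 12.8 ± 0.795 in control, a change of -0.58 ± 0.10 (SE, adjusted p = 0.00319) that passed in every fit without 1 library. CPK4 (-0.37, adjusted p = 0.011), CIPK11 (-0.43, adjusted p = 0.0182) and SNRK2.3 (-0.38, adjusted p = 0.0413) did not pass in all of them, and the number called was 1 without control replicate 2, 2 without control replicate 3, and up to 5 otherwise. With low potassium CIPK11 (0.40) and BIN2 (0.29) were higher and CPK4 (-0.32) and CPK11 (-0.50) lower, at adjusted p values of 0.014 to 0.0257, and each of these 4 calls was lost without at least 1 of the control or low-potassium libraries (adjusted p up to 0.0931). These 4 are 44.4% of the kinases tested, near the 37.6% of all genes. Cesium minus low potassium, 0 were higher and 7 lower, where 17.4% of all tested genes were lower. Without low-potassium replicate 2 the number was 4, and 4 of the 7 held in every fit without 1 library, while SNRK2.2, CIPK26 and BIN2 did not. Among the 4 were CIPK11 (-0.84), OST1 (-0.70) and SNRK2.3 (-0.63).

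**Figure D5:**
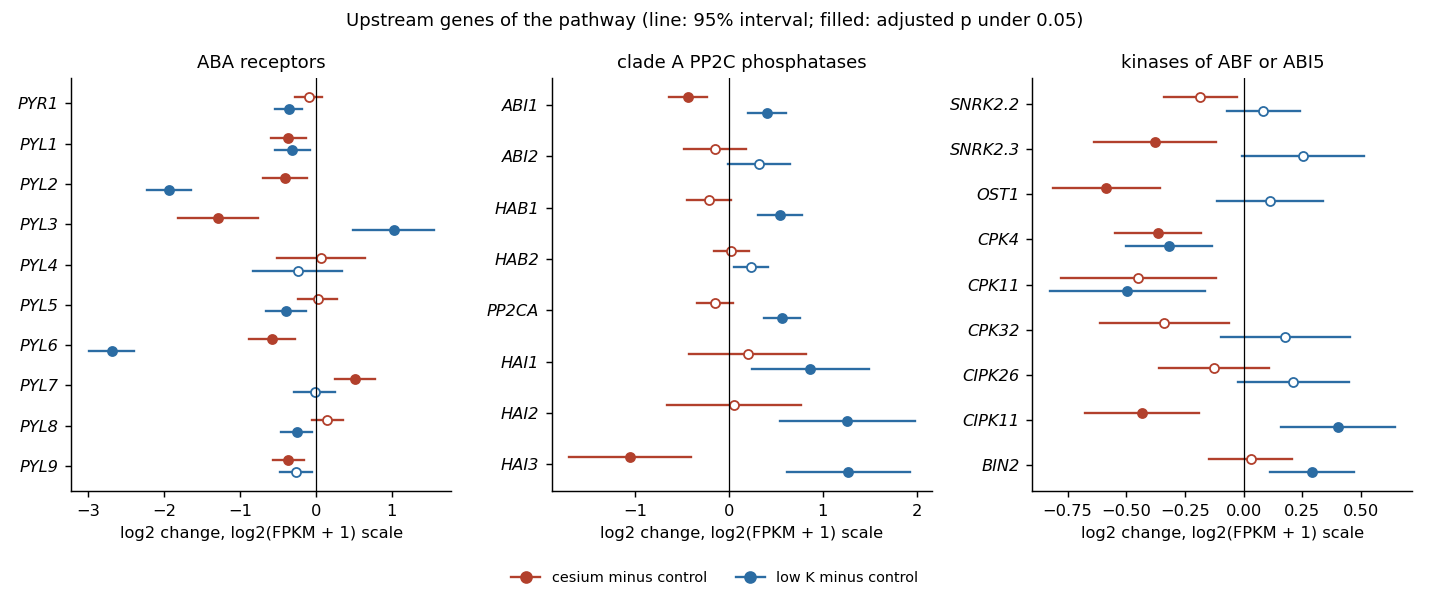
log2 change of the tested receptor, PP2C and kinase genes with cesium and with low potassium, each against control, with 95% intervals, filled where the adjusted p is under 0.05. PYL6 and PYL2 lie at -2.69 and -1.93 with low potassium, while 6 of 8 PP2C genes are filled above 0 there.

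Of genes that control ABI5 itself, HY5, a light signalling factor that binds the ABI5 promoter, fell by 0.65 with cesium (adjusted p = 0.00415) and by 0.50 with low potassium (adjusted p = 0.0102). WRKY60, of a WRKY group that represses ABI5, fell by 0.46 with cesium (adjusted p = 0.007) and by 0.97 with low potassium (adjusted p = 8.89e-05). WRKY40, which is known to repress ABI5 directly, fell by 0.69 with low potassium (adjusted p = 0.035), a call lost without control replicate 1, 2 or 3 or low-potassium replicate 1 or 3 (adjusted p 0.0688 to 0.120). RAV1, another repressor of ABI5, was higher by 0.63 with cesium (adjusted p = 0.0205), and by 0.42 without cesium replicate 1. The call on RAV1 was lost without control replicate 2 (adjusted p = 0.0712) or 3 (adjusted p = 0.0706). WRKY40, WRKY60 and RAV1 were all higher with cesium than with low potassium, by 1.09, 0.51 and 0.70. Those 3 are 50% of the 6 tested, where 16.7% of all tested genes were higher and 34.2% passed in either direction. Of the 6 tested, 1 was higher and 2 lower with cesium and 0 higher and 3 lower with low potassium. Each time 50% were called, against 23.5% of all tested genes with cesium and 37.6% with low potassium. WRKY18, of the same WRKY group, and BBX21 passed in no comparison, and HY5 did not pass between cesium and low potassium.

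Among 11 tested genes for turnover and partners of the factors, AFP4, of the family of ABI5-binding proteins, was lower with cesium (-0.69, adjusted p = 0.00446) and with low potassium (-0.68, adjusted p = 0.00314). AFP1, which promotes the breakdown of ABI5, was lower with cesium (-0.80, adjusted p = 0.0342), a call lost without cesium replicate 1 or 2 or control replicate 1 or 2 (adjusted p 0.0774 to 0.120). AFP2 was higher with low potassium (0.74, adjusted p = 0.00413). SIZ1, which attaches SUMO to ABI5, was higher (0.28, adjusted p = 0.0375) and the phosphatase gene FYPP1 lower (-0.29, adjusted p = 0.0201) with low potassium, calls lost in 5 and 3 of the 9 fits without 1 library (adjusted p up to 0.131 for SIZ1 and 0.0736 for FYPP1). The ubiquitin ligase gene KEG, whose product marks ABI5 for breakdown, averaged 8.61 ± 0.935 FPKM with cesium and 12.1 ± 0.440 with low potassium (-0.45, adjusted p = 0.00583). Beside KEG, AFP1, AFP2 and SIZ1 were lower and FYPP1 higher, cesium minus low potassium, and each of those 4 calls was lost without at least 1 library. The share of the 11 called was 18.2% with cesium, 36.4% with low potassium and 45.5% between the stresses, against 23.5%, 37.6% and 34.2% of all tested genes, and the number called between the stresses was 1 without low-potassium replicate 2 or 3.

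The genes nearest to each factor in pattern were found from centred log2(FPKM + 1) over the 9 libraries, among 15009 genes averaging 5 FPKM or more, with the root mean square difference as the measure. For ABF2 they were HAT2, XTH30 and RALF1 (0.102 to 0.116). For ABF3 they were AT2G22660, AT2G23790 and AT2G20080 (0.0996 to 0.106), and for ABF4 IQD22, YLS2 and FC1 (0.050 to 0.053). Those of ABI5 were AT3G12320, AT2G31280 and AT5G02065 (0.095 to 0.105), and those of ABF1 were MYB34, RPE and AT1G49520 (0.068 to 0.073). Between the factors themselves, ABF4 and ABI5 (0.251) and ABF2 and ABF3 (0.257) were closest, and ABF2 and ABI5 (0.647) farthest apart.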

How the data were processed

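The authors' files, 1 per library, hold FPKM of every gene with lower and upper bounds and a status, per the file headers, and 5 genes with another status than OK were dropped. Per the submitters' processing notes, Cufflinks 2.2.1, STAR 2.5.0c, Bowtie2 2.3.4.1 and TAIR10 were used, without their roles. The authors' deposited tables of each stress against control hold log2 fold changes, p-values and q-values, and the sources used here do not name the test behind them. Labels gave the groups.

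log2(FPKM + 1) was fitted with limma 3.58.1 (R 4.3.3, intensity trend, one-way model of 9 libraries) for the 19536 genes averaging 1 FPKM or more, with Benjamini-Hochberg adjustment within each of the 3 comparisons and 0.05 as the threshold. FPKM call for no count model, and depth was read only as a ratio between libraries. The members and lists were chosen with earlier results of these data known. All 5 factors are named, with up to 3 genes of the smallest adjusted p from each other list, every gene of a count of 5 or fewer and the 3 nearest genes in pattern. All 120 list entries matched a RefSeq locus tag of TAIR10.1. The fit was tested on simulated data for cesium against control with 19162 genes, where 85% of changes of 1 and 100% of changes of 2 (log2) were recovered and 9 unchanged genes called. No change smaller than 1 was simulated, and the genes changed there lay above the level of ABI5. These rates therefore do not cover the changes of the factors, all of them smaller than 1. Python 3.11.15, pandas 2.3.3 and matplotlib 3.10.9 were used. Alternatives were pseudocounts of 0.1 and 0.5, no filter or 5 FPKM, 2 scalings, 6 libraries, a block, no trend, leaving out each library and the authors' q-values.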

Additional observations from a re-analysis of the deposited data

How the results depend on the processing

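The changes of ABF2 and ABF3 with cesium, and of ABF2, ABF4 and ABI5 with low potassium, kept direction and call under all 19 alternatives (18 for ABI5, which a filter of 5 FPKM leaves out), as did ABF3 and ABF4 between the stresses under 18. ABI5 with cesium passed with a pseudocount of 0.1 (0.68) or 0.5 (0.54), without the trend (0.44, adjusted p = 0.0332), by the authors' q-value (0.69) and without control replicate 2, where the value was 0.55, and ranged from 0.35 to 0.55 without 1 library. ABF1, cesium minus low potassium, passed after quantile normalization (0.31). Values near 0 changed sign: ABF3 with low potassium was 0.050 after quantile normalization and -0.073 to 0.079 without 1 library, and ABF4 with cesium was -0.0025 to 0.107. ABI5, cesium minus low potassium, was -0.60 to -0.43 without 1 library and lost its call in 3 of 9 fits. Genes called with cesium numbered 2907 (without control replicate 2) to 4830 without 1 library. Target genes called with cesium numbered 8, and 13 by the authors' q-values, which called 2 kinases and 2 turnover genes with low potassium in place of 4 each. With no filter turnover genes called were 1 in place of 2 with cesium and 3 in place of 5 between the stresses, where the block gave 2. Other group A bZIP genes called with low potassium were 1 in place of 2 with no filter, quantile normalization or the block, and PP2C genes called with cesium were 1 in place of 2 with a filter of 5 FPKM. The cause of these changes was not tested. Another scaling moved the median of all genes by less than 0.01.

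Deviations of same-numbered libraries correlated at -0.120 to 0.282 over 9 pairs, and those of other numbers at -0.216 to 0.203 over 18 pairs. These ranges overlap, and weak correlations cannot exclude that same-numbered samples were grown or handled together. With a replicate block, 2, 3 and 3 factors passed with cesium, with low potassium and between them, the same numbers as without it, and 4154, 6729 and 6095 genes. The deposited bounds are widest, relative to the level, for ABI5.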
